A study of Saccharomyces cerevisiae with 11 samples.

Results

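The enzymes of amino acid biosynthesis in budding yeast (Saccharomyces cerevisiae, strain SK1) are described here by where ribosomes started translation on their transcripts. Their 59 genes were taken by name from the deposited annotation of 6707 genes and cover the pathways of arginine, histidine, the branched-chain amino acids, lysine, tryptophan and chorismate, threonine and methionine, serine, proline, and glutamine and asparagine. Of these genes, 58 had entries in the deposited table of candidate open reading frames (ORFs), with 1938 of its 192230 entries. The rule that picks the genes uses their names and no measured value, although results of these data were known when the set was proposed.

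Yeast makes all its amino acids when none are supplied, and many of these genes are switched on together by the transcription factor Gcn4, in the response known as general amino acid control. Several of the pathways begin with an enzyme that is inhibited by its own end product. Translation can also be set by short ORFs in the leader, upstream of the main start codon. The classic case among these enzymes is CPA1, whose leader encodes the arginine attenuator peptide, which stalls ribosomes when arginine is plentiful.

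All cells were SK1, a background that sporulates well, and all received lactimidomycin (LTM) at 3 µM, which holds ribosomes on start codons while elongating ribosomes run off. There were 11 libraries of ribosome-protected RNA fragments, each alone in its group. In the vegetative groups, cells in rich medium were taken during exponential growth (OD600 0.6) or at saturation (OD600 10). In the meiotic groups, cells were taken at 0, 1.5, 3, 4.5, 6, 8, 10 and 22 h in sporulation medium, and MATa/a cells, which carry only the a mating type and do not enter meiosis, at 4.5 h. The labels give no marker genotype and no further allele for any group. The table has 1 value per ORF for all data combined and no value per library, so no level per condition, no replicate and no depth per library can be given. Which libraries were combined is not stated.

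Each candidate begins with AUG or with a near-cognate codon, which differs from AUG in a single base. Its forest score runs from 0 to 1, and an ORF is called rated here when the score is above 0.5. LTM evidence is the deposited statistic for a start codon in the LTM data. The CHX regression value is the deposited strength of translation in a data set named CHX. Neither has a stated scaling to depth or length, so values of different genes are levels of these scores and not of protein made. Shares have exact (Clopper-Pearson) 95% intervals that cover counting error only, since ORFs of 1 transcript are not independent. Values over all genes of the table are given beside those of the enzymes as background, and no test of the difference was made.

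The annotated start codons of these enzymes were rated wherever they were listed as annotated ORFs, which those of HIS3, LEU2, TRP1, ILV6 and ARO3 were not. All 54 annotated ORFs that began at the gene's own start were rated (100%, interval 93.4 to 100), against 93.5% of such ORFs of all genes. A further entry listed under HOM2 lay at another gene, and with it 55 of 55 annotated entries were rated, where the background is 93.3%. Annotated ORFs were used by the authors to train the score, so these shares are no independent control. The median score was 0.922, against 0.896 over all genes, and 37 of the 54 scores were above 0.9.

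Start evidence at these codons covered a wide range. Median LTM evidence was 5983 for the enzymes and 2968 for all genes, and 39 of 54 enzymes lay above the median of all genes. The upper quartile of all genes was passed by 22 of the enzymes, and 3 lay below the lower quartile. The CHX regression value had a median of 0.986, against 0.296 over all genes, and 31 of 54 enzymes were above the upper quartile.

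MET6, the cobalamin-independent methionine synthase, had LTM evidence of 144900, the 2nd highest among the 4814 annotated entries. ASN1, an asparagine synthetase, had 56327 and ranked 45th. ILV2, the catalytic subunit of acetolactate synthase, had 38776 and ranked 96th. These 3 genes serve different pathways. PRO3, which makes proline from pyrroline-5-carboxylate, had 28069, and SER33, a phosphoglycerate dehydrogenase that opens serine synthesis, had 27325. The highest CHX regression value was that of GLN1, glutamine synthetase, at 15.6, with LTM evidence of 23047.

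At the other end, HOM2, the aspartate semialdehyde dehydrogenase shared by threonine and methionine synthesis, had LTM evidence of 357. ARG2, which makes N-acetylglutamate at the start of the arginine pathway, had 397 and the lowest score of the 54, at 0.689. TRP4, which joins anthranilate to a phosphoribosyl group, had 553. These 3 enzymes were the ones below the lower quartile of all genes. THR1, homoserine kinase, had 752, and HIS1, which takes the first step of histidine synthesis, had 1134. The low LTM evidence of HOM2 stood beside a CHX regression value of 0.979, close to the median of the enzymes, whereas ARG2 had 0.0307, so the data sets did not order these genes alike.

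**Figure D1:**
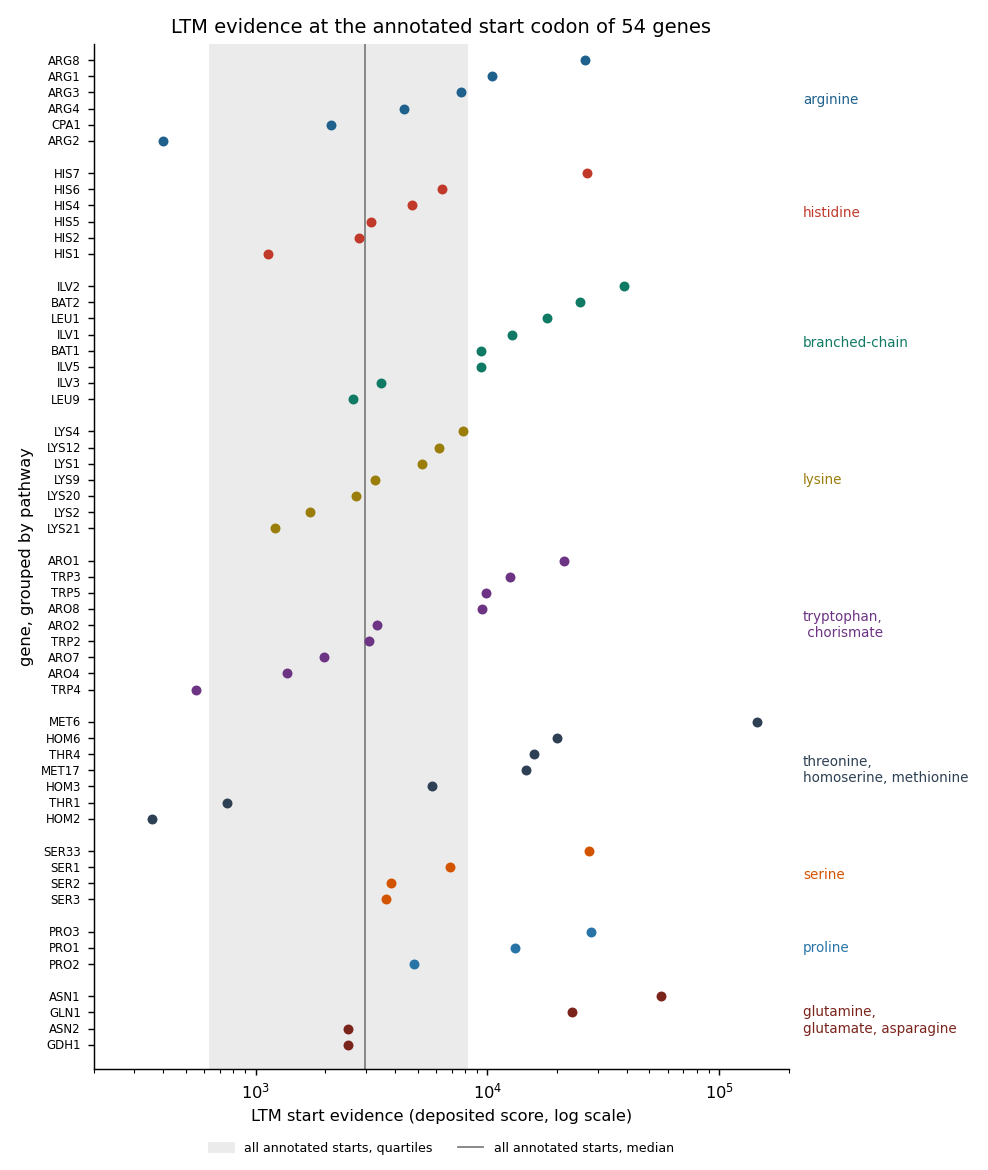
LTM evidence (deposited score, log scale) at the annotated start codon of 54 enzymes, each point 1 gene, grouped by pathway, with the median and quartiles of all 4759 annotated starts. The points run from 357 (HOM2) to 144900 (MET6), and 39 of 54 lie to the right of the line for all genes, which marks 2968.

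Isozymes of the same step differed in start evidence. SER33 had 27325 and SER3, the other phosphoglycerate dehydrogenase, 3656. ASN1 had 56327 and ASN2 2499. For the branched-chain aminotransferases, BAT2, the cytosolic form, had 25144 and BAT1, the mitochondrial form, 9373. The homocitrate synthases LYS20 and LYS21, which open the lysine pathway, were closer, at 2712 and 1212, and neither had a rated upstream ORF among 6 and 8 candidates. How reads shared by near-identical genes were treated is not given in the sources used here, so the split within a pair is uncertain, and with 1 value per gene none of these differences has an error.

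The genes HIS3, LEU2, TRP1, ILV6 and ARO3 had no annotated ORF in the table, and what was listed for them differed from gene to gene. LEU2, isopropylmalate dehydrogenase, had 0 entries, and 0 entries of any gene lay within 500 nt of its coding sequence. HIS3, imidazoleglycerol-phosphate dehydratase, had 41 entries, but all 41 lay inside the neighbouring gene DED1, which encodes an RNA helicase, and 0 lay inside the HIS3 coding sequence. TRP1, phosphoribosylanthranilate isomerase, had 20 entries, and the last of their start codons was 212 nt into a coding sequence of 224 codons. HIS3, LEU2 and TRP1 are in wide use as selectable markers in laboratory yeast, and the state of these loci in the cells sampled was not tested.

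TRP1 still had 6 rated ORFs, all of them short. The strongest was an AUG ORF of 23 codons that began 204 nt before the annotated start, with a score of 0.859 and LTM evidence of 831. ARO3, the phenylalanine-inhibited enzyme that opens the chorismate pathway, had its full-length AUG ORF of 370 codons listed as a new isoform, with a score of 0.890, LTM evidence of 1369 and a CHX regression value of 3.76. ARO4, its tyrosine-inhibited counterpart, had 1366, so the start evidence of this pair was close. For ILV6, the regulatory subunit of acetolactate synthase, the annotated AUG is followed at once by CUG. That CUG was rated as the start of a truncated ORF of 308 codons, with a score of 0.745 and LTM evidence of 141, while the AUG itself has no entry. Of the entries under HOM2, 5 lay at RPA14, which encodes a subunit of RNA polymerase I, and one of these is the further annotated entry above, of 137 codons.

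Upstream ORFs, which begin in the leader and end before the main start, were rated in 66 of 324 cases (20.4%, interval 16.1 to 25.2), against a background of 22.0%. By gene, 34 of the 50 enzymes with a candidate had at least 1 rated upstream ORF (68.0%, interval 53.3 to 80.5), against 58.2% of all genes with a candidate. With AUG alone, 13 of 50 enzymes had one (26.0%, interval 14.6 to 40.3), against 33.2%. Both intervals hold the share of all genes. There were 16 enzymes with 1 rated upstream ORF, 10 with 2, 4 with 3, 2 with 4 and 2 with 5, while 16 had candidates of which none was rated and 9 had no candidate. Those 9 include HIS3, LEU2, TRP1, ILV6 and ARO3, which had no annotated ORF in the table. Leader ORFs of TRP1, some of them rated, and of ARO3 were listed as new isoforms and are not counted here.

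Candidates with AUG were rated in 19 of 86 cases (22.1%, interval 13.9 to 32.3), against 29.3% of all genes. Near-cognate candidates were rated in 47 of 238 cases (19.7%, interval 14.9 to 25.4), against 19.4%. In all genes AUG was rated more often than the near-cognate codons, and among the enzymes the 2 shares lay within each other's intervals. Rated near-cognate starts outnumbered rated AUG starts, as their candidates did.

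UUG stood highest of the near-cognate codons, with 19 of 47 rated (40.4%, interval 26.4 to 55.7), against 33.1% over all genes. GUG followed with 4 of 15 (26.7%, against 20.6%), CUG with 6 of 25 (24.0%, against 26.2%) and AUU with 11 of 51 (21.6%, against 16.7%). AUA had 5 of 45 (11.1%, against 16.7%) and AUC 2 of 21 (9.52%, against 10.8%). No ORF with ACG (0 of 14), AAG (0 of 16) or AGG (0 of 4) was rated, where 19.3%, 4.07% and 4.44% of all such candidates were. The upper limits of these intervals, 23.2%, 20.6% and 60.2%, lie above the shares of all genes, so a lower share is not shown with so few candidates.

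**Figure D2:**
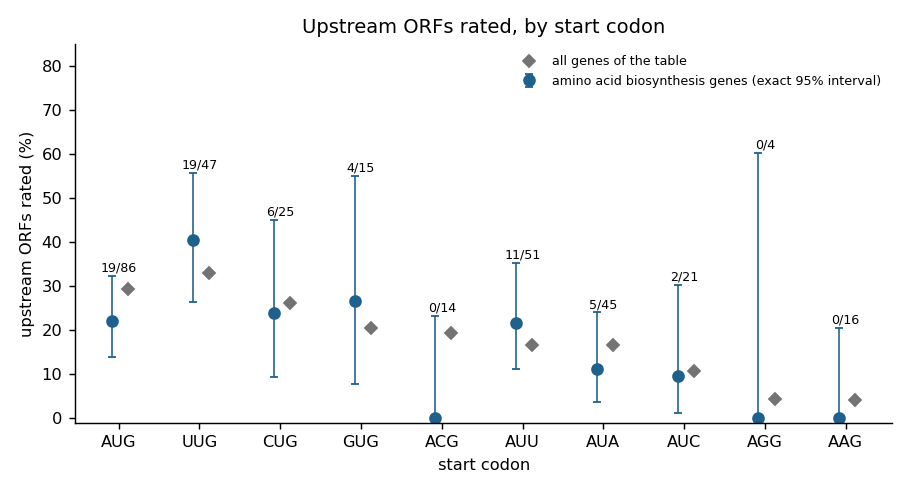
Share of candidate upstream ORFs with a score above 0.5 (%) by start codon, for the enzymes (circles, exact 95% intervals, with rated and candidate numbers) and for all genes (diamonds). UUG is highest in both, at 40.4% and 33.1%, and the interval of every codon holds the share of all genes.

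By pathway, the shares are read against 22.0% of candidates and 58.2% of genes over the whole table. Of the branched-chain genes, 7 of 8 with a candidate had a rated upstream ORF, with 14 of 54 candidates rated (25.9%). In tryptophan and chorismate synthesis it was 7 of 9 genes, with 9 of 51 candidates (17.6%). In lysine synthesis 12 of 44 candidates were rated (27.3%), all in 3 of the 7 genes, LYS2, LYS4 and LYS9. Serine synthesis had 8 of 27 (29.6%) in 3 genes, and glutamine, glutamate and asparagine synthesis had 6 of 46 (13.0%) in 4 genes. Arginine and histidine synthesis each had 18.2%, with 4 of 22 in 2 genes and 6 of 33 in 4 genes. The threonine, homoserine and methionine genes had 7 of 34 (20.6%) in 4 genes. Proline synthesis had 0 of 13, in the 2 genes PRO1 and PRO2 that had candidates. These groups are small and overlap in no gene, and most of their shares lie near that of all genes. Across pathways, the 17 first committed or feedback-inhibited enzymes had 22 of 109 candidates rated (20.2%), and the 11 enzymes known from the mitochondria had 15 of 54 (27.8%).

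Rated upstream starts sat close to the main start. Their median distance was 80 nt, against 155 nt for the candidates not rated, and over all genes these distances were 124 and 198 nt. Within 200 nt 59 of 212 candidates were rated (27.8%, against 28.0% of all genes), and beyond 200 nt 7 of 112 (6.25%, against 14.7%). Of these 7 distant ORFs, 6 began with AUG and lay in BAT1, LYS9 and SER3. The rated ORFs were short, with a median of 10 codons and a lower quartile of 5, the same values as over all genes. Of the 66 in the enzymes, 21 had 5 codons or fewer, a share not computed over all genes. These 66 ended at 61 different stop codons, and 13 of the 66 starts had another rated start within 5 nt.

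**Figure D3:**
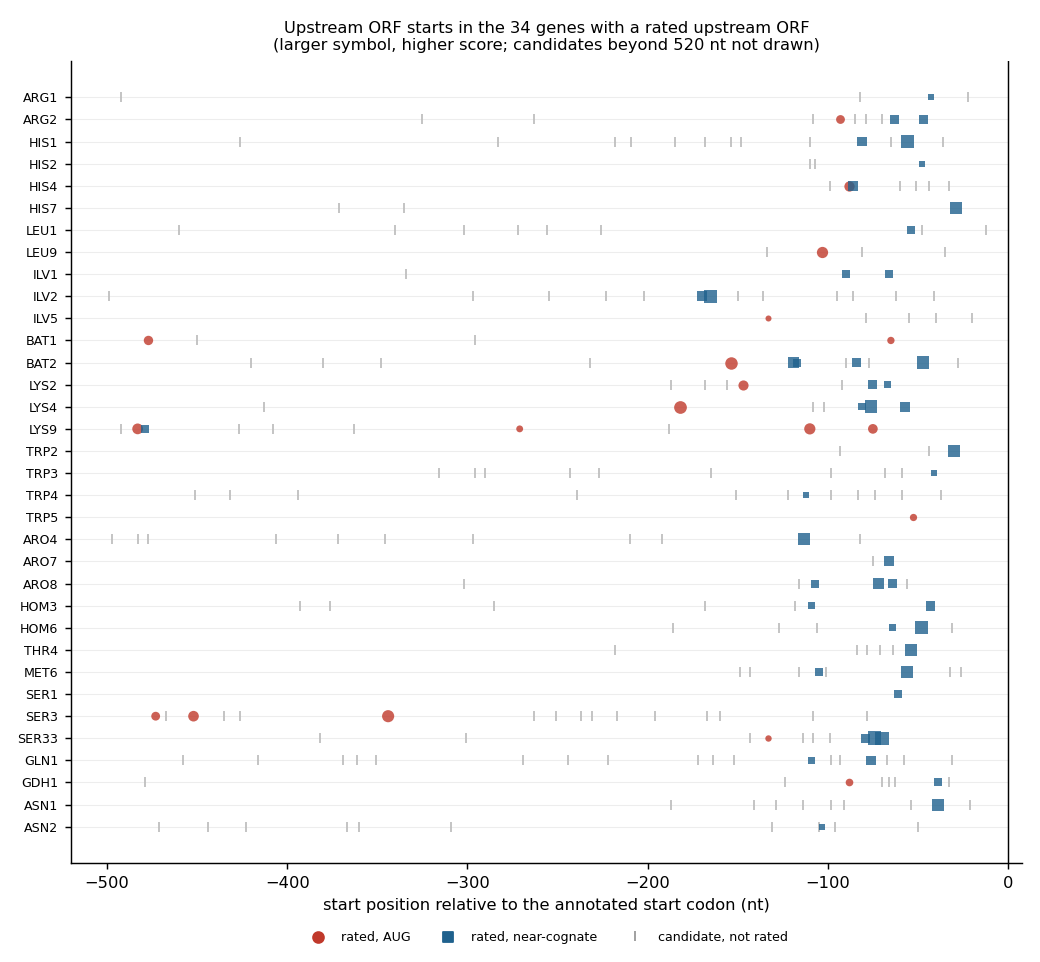
Start positions of candidate upstream ORFs relative to the annotated start codon (nt) in the 34 enzymes with a rated one, with circles for rated AUG starts, squares for rated near-cognate starts and ticks for candidates not rated. Most rated starts lie within 200 nt of the main start (59 of 66), and the distant ones are mainly AUG starts of BAT1, LYS9 and SER3.

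The CPA1 leader serves as the known case. CPA1 encodes the small subunit of the arginine-specific carbamoyl phosphate synthetase, and the deposited annotation lists its attenuator peptide ORF as a gene of its own, YOR302W. CPA1 itself therefore had no upstream candidate, and its only candidate across the start, an AUU, had a score of 0.281. The attenuator ORF has 25 codons, lies at 892701 to 892778 of SK1 chromosome 15 on the plus strand and begins 134 nt before the CPA1 start. Its score was 0.977. Its LTM evidence was 2856, against 2104 for CPA1, a ratio of 1.36, while its CHX regression value was 1.18 against 1.93, a ratio of 0.612. A UUG 82 nt before the attenuator AUG was also rated, at 0.785. It opens an ORF of 29 codons that overlaps the attenuator start, with LTM evidence of 2197 and a CHX regression value of 0.0285. Upstream of the attenuator a CUG at 71 nt and a UUG at 29 nt were rated at 0.801 and 0.514, with LTM evidence of 48.7 and 7.91. The windows of 30 bases around the 2 strong starts are shown to let the codon contexts be compared. They are from the S288C reference (R64), at the same distance from the annotated start and with the same codon and ORF length there, and the start codon is in capitals.
YOR302W AUG, chrXV:882753-882782, plus strand: aaaaaacattatATGtttagcttatcgaac
YOR302W UUG, chrXV:882671-882700, plus strand: tcgaacatctaaTTGtttaaatactgcaaa

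LYS9, the saccharopine dehydrogenase that forms saccharopine, had the 1 rated upstream start, among those listed under the enzymes' own names, that was above the main start in LTM evidence. The attenuator AUG and the overlapping UUG of the CPA1 leader, listed under YOR302W, were above the CPA1 start too, with ratios of 1.36 and 1.04. An AUG 110 nt upstream, at 727468 of SK1 chromosome 14 on the minus strand, opens an ORF of 5 codons. It had a score of 0.761 and LTM evidence of 5896, against 3257 at the LYS9 start, a ratio of 1.81. Its CHX regression value was 0.0129 against 1.03, a ratio of 0.0125, so the data sets differed on this ORF. LYS9 had 5 rated upstream ORFs, 4 with AUG, and the others had LTM evidence between 7.69 and 301.

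Among the 66 rated upstream ORFs of the enzymes, this 1 (1.52%) was above the annotated start, whereas 1043 of 6247 were over all genes (16.7%). At least 0.1 of the annotated evidence was reached by 11 of 66 (16.7%), against 33.9% over all genes. The median ratio was 0.00446 for the enzymes (quartiles 0.00131 and 0.0487) and 0.0211 for all genes (0.00269 and 0.270). Among rated starts, which the score selects in part by LTM evidence, the median of the numerator alone was not lower, but its upper quartile was. Median LTM evidence of rated near-cognate upstream starts was 37.1 in both, and of rated AUG upstream starts 63.1 for the enzymes and 38.6 for all genes. For near-cognate starts the quartiles were 8.46 and 162 for the enzymes and 7.36 and 220 for all genes. For AUG starts they were 9.24 and 244 for the enzymes and 7.11 and 301 for all genes. The denominator, LTM evidence at annotated starts, had the higher median for the enzymes given above. Because the score itself draws on LTM evidence, ratios of rated ORFs are described without a test. Over all 324 candidates of the enzymes the median ratio was 3.11e-06, and over those of all genes 2.96e-05. The numerator over all candidates was not summarized by itself, so the values for rated starts do not extend to it.

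**Figure D4:**
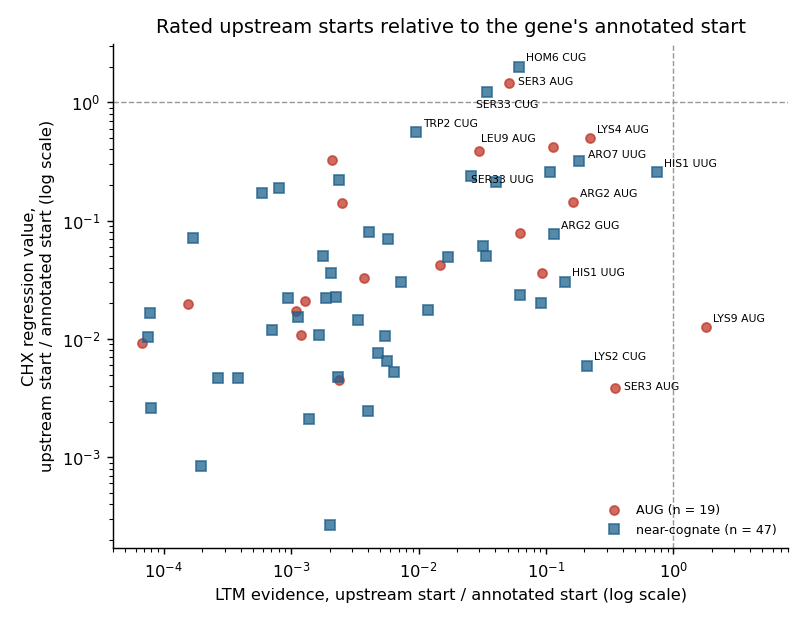
LTM evidence (horizontal) and CHX regression value (vertical) of each rated upstream start divided by that of the gene's annotated start, both on log axes, with circles for AUG (n = 19) and squares for near-cognate codons (n = 47). LYS9 AUG, at 1.81, is the only point to the right of the vertical line at equality, and HOM6, SER3 and SER33 each have 1 point above the horizontal line.

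The highest-scoring upstream starts were near-cognate. In SER33, on the minus strand of SK1 chromosome 9, a UUG 74 nt upstream (225615) had a score of 0.926 and LTM evidence of 2963, and a CUG 70 nt upstream (225611) had 0.915 and 935. The annotated start had 27325, which makes the ratios 0.108 and 0.0342. The 2 codons begin 4 bases apart and are read in different frames, one for 13 codons and the other for 2. For the CUG ORF the CHX regression value was 1.26, above the 1.03 of SER33 itself. A similar ORF was found in HOM6, homoserine dehydrogenase, where a CUG 48 nt upstream (705219 of SK1 chromosome 10, minus strand) had a score of 0.908, LTM evidence of 1217 and a CHX regression value of 3.96, against 1.98 for HOM6. Its LTM ratio was 0.0610. Both CUG ORFs read CUG, UUU and a stop codon, as the windows show. HIS1 had a UUG 56 nt upstream (272203 of SK1 chromosome 5, minus strand) with a score of 0.895. Its LTM evidence of 840 was 0.741 of that at the annotated start. ILV2 had a UUG 165 nt upstream (473708 of SK1 chromosome 13, plus strand) with a score of 0.905 and LTM evidence of 1569, a ratio of 0.0405. The windows of these starts and of the LYS9 AUG are given as above, since these starts carry the highest scores or ratios.
LYS9 AUG, chrXIV:715481-715510, minus strand: gaatttggcttaATGgtatataaaccgtag
SER33 UUG, chrIX:222547-222576, minus strand: ttaaaaaatactTTGtctgttttagctgta
SER33 CUG, chrIX:222543-222572, minus strand: aaaatactttgtCTGttttagctgtagatt
HOM6 CUG, chrX:690555-690584, minus strand: gtgtactcaggaCTGttttaagaacgtaga
HIS1 UUG, chrV:265824-265853, minus strand: cctattaacggtTTGaatctttgaaaatag
ILV2 UUG, chrXIII:483907-483936, plus strand: ccgtaatttgtaTTGtttttttccttcatt

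LYS4, the mitochondrial homoaconitase, had 4 rated upstream ORFs. Its AUG 182 nt upstream had a score of 0.861 and LTM evidence of 1741, which was 0.222 of the annotated value of 7856, and its CUG 76 nt upstream had 0.850 and 250.0. BAT2 had 5, of which the AUG 154 nt upstream scored 0.843 and an AUU 47 nt upstream 0.822. Neither came near the BAT2 start in LTM evidence, with 63.1 and 56.9 against 25144. The AUG ORF of BAT2 has 2 codons, and its CHX regression value of 0.953 was 0.141 of that of BAT2. In ARO4 an AUU 113 nt upstream scored 0.855, with LTM evidence of 125, a ratio of 0.0915.
BAT2 AUG, chrX:705578-705607, plus strand: aggagatccgaaATGagctgacagtataac

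SER3 is known for a noncoding transcript, SRG1, that is made across its promoter and represses it, and its rated upstream ORFs were not set against that transcript here. All 3 were AUG ORFs far from the main start, at 344, 452 and 473 nt. The one at 452 nt had LTM evidence of 1263, a ratio of 0.346 to SER3, and the one at 344 nt had the highest score, 0.820. The latter had a CHX regression value of 0.406 against 0.280 for SER3, a ratio of 1.45. It is with HOM6 and SER33 among the 3 rated upstream ORFs above the annotated ORF in this value. A UUG 41 nt before the ILV2 start, with 2 codons, was above the annotated ORF as well (7.47 against 1.84) but was not rated, with a score of 0.366. Over all 66 rated upstream ORFs of the enzymes the median ratio of CHX regression values was 0.0268 (upper quartile 0.142). Over those of all genes it was 0.118 (upper quartile 0.477). The share of all genes above the annotated ORF in this value was not computed.

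The other enzymes with rated AUG upstream ORFs had ratios of LTM evidence between 6.80e-05 (SER33) and 0.162 (ARG2). LEU9, an isopropylmalate synthase, had one 103 nt upstream with LTM evidence of 301, a ratio of 0.114. In ARG2 an AUG 93 nt upstream had 64.4, a ratio of 0.162 to its low annotated start, and a GUG and a UUG nearer the start were rated with it. HIS4, which catalyses several steps of histidine synthesis, had an AUG 88 nt upstream with 140 (ratio 0.0296). LYS2, aminoadipate reductase, had an AUG at 147 nt with 107 (ratio 0.0621). The remaining ones were weak. They lay in BAT1, at 477 and 65 nt with 35.2 and 11.3, in TRP5, tryptophan synthase, with 10.8, and in GDH1, a glutamate dehydrogenase, with 3.21. SER33 and ILV5, acetohydroxyacid reductoisomerase, had AUG starts at 133 nt with LTM evidence of 1.86 and 1.45, the lowest of the 19.

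The base 3 positions before the start codon is most often A at strong yeast starts, and it was read in the S288C reference where the start could be matched. A stood there in 38 of 54 annotated starts of the enzymes (70.4%), against 62.8% over all genes. It stood there in 18 of 43 rated near-cognate upstream starts (41.9%) and in 44 of 146 near-cognate ones not rated (30.1%). Over all genes these shares were 44.6% and 35.4%, so rated near-cognate starts had the higher share in both. Of the rated AUG upstream starts 1 of 13 had A (7.69%), against 18 of 50 not rated (36.0%), while over all genes the shares were 31.7% and 32.7%. Only 56 of the 66 rated upstream ORFs could be matched, and those of SER3 and the AUG of LYS4 were not among them.

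ORFs that begin upstream and end in or beyond the main start codon, in another frame, were rated in 7 of 59 cases (11.9%, interval 4.91 to 22.9), against a background of 20.2%. With near-cognate codons it was 7 of 56 (12.5%, against 16.8%), and with AUG 0 of 3, where 52.4% of all such ORFs were rated. The highest scores were those of an AAG 59 nt before the start of ARG1, argininosuccinate synthetase (0.839), and of a CUG 38 nt before LYS2 (0.827). The stop codons of both end on the A of the main AUG, so neither ORF runs past the main start. Next came an AUA in BAT1 (0.787) and a UUG in ARG3, ornithine carbamoyltransferase (0.751). An AUU in HIS4 (0.681), an AUU in SER2, phosphoserine phosphatase (0.659), and an AUA in ILV5 (0.501) complete the list. LTM evidence of the 7 was between 0.000176 and 0.0513 of the annotated starts they overlap, with SER2 highest.

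Extensions, which begin upstream in frame and add residues to the protein's amino end, were not rated in any enzyme. There were 22 candidates in 15 genes, all near-cognate, and 0 of 22 were rated, which allows a share of up to 13.6% (3 of 22), or 15.4% as the upper end of the exact interval. Over all genes 4.57% of extensions were rated, and 3.64% of near-cognate ones, so the number of candidates is too small to show a difference. The highest score was 0.352, for a UUG 15 nt before the LYS4 start, and it was the 1 extension above 0.1, a value that 23.3% of all extensions passed. Of the 22, 11 belonged to enzymes known from the mitochondria, whose import signals lie at the amino end.

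Truncations, which begin downstream in frame, were rated in 3 of 363 cases (0.826%, interval 0.171 to 2.40), against a background of 2.71%. With AUG it was 1 of 43 (2.33%, interval 0.0589 to 12.3, against 10.3%). With near-cognate codons it was 2 of 320 (0.625%, interval 0.0758 to 2.24, against 1.38%). Each of these 2 intervals holds the share of all genes, while that of all truncations together ends at 2.40%, below 2.71%. Without the entries that lay at another gene, 3 of 343 were rated (0.875%). The notes deposited with the table warn that calls inside coding sequences carry many false positives from elongating ribosomes. In HOM3, aspartate kinase, the AUG 2 codons after the annotated start had a score of 0.729 and LTM evidence of 1103, which was 0.191 of the annotated 5774. In ARG2 an AUU 88 codons in had 0.845 and LTM evidence of 148, a ratio of 0.371. The CUG of ILV6 described above is the other rated one. The next near-cognate truncations fell short of 0.5. They were an AUA and an ACG listed under HIS3 but lying in DED1, at 0.491 and 0.458, and a UUG in HIS6, an isomerase of histidine synthesis, at 0.336. The windows of the HOM3 and ILV6 starts show how close they lie to the annotated AUG, which begins 6 and 3 bases before the capitals.
HOM3 AUG, chrV:257935-257964, minus strand: ttttacatgccaATGgatttccaacctaca
ILV6 CUG, chrIII:105528-105557, minus strand: gtctttctaatgCTGagatcgttattgcaa

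ORFs inside coding sequences in another frame were the most numerous class. Of 1060, 105 were rated (9.91%, interval 8.17 to 11.9), against 10.3% over all genes. AUG ones were rated in 35 of 175 cases, against 23.0% over all genes, and near-cognate ones in 70 of 885 (7.91%, against 7.45%). The highest scores were those of a pair of AUGs in LYS2, at 0.877 and 0.861, which begin 6 bases apart and share a stop codon, and of an AUG 34 nt into ARG2, at 0.836. The ARG2 one had LTM evidence of 630, above the 397 of the annotated ARG2 start. ORFs across the stop codon (0 of 12, against 7.87%) and downstream of it (0 of 5, against 2.70%) had no rated member, and of new isoforms 4 of 36 were rated (11.1%, against 9.45%), 3 of them in TRP1 and the other in ARO3. A last class, written Giso in the table, had 1 rated of 2 (background 22.8%), which lay in DED1 and was listed under HIS3.

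**Figure D5:**
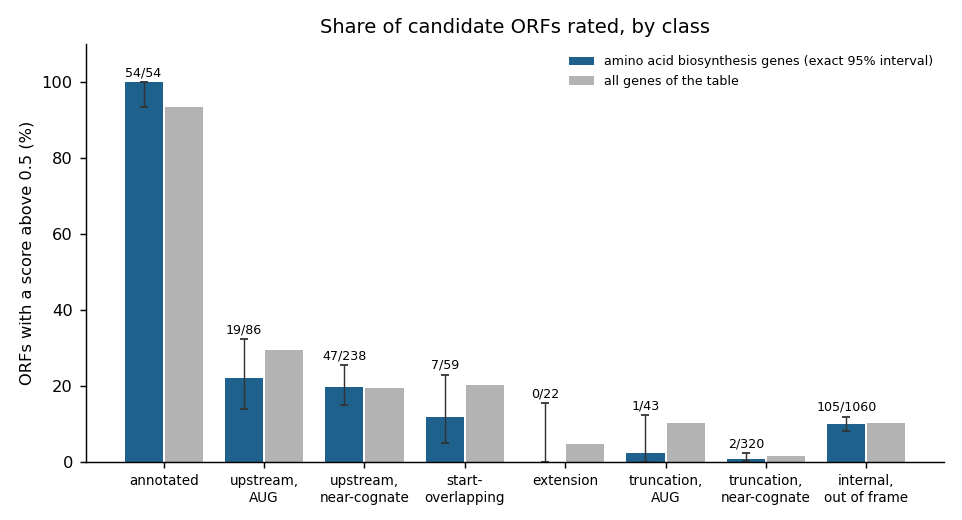
Share of candidate ORFs with a score above 0.5 (%) by class, for the enzymes (blue bars, exact 95% intervals, with rated and candidate numbers) and for all genes (grey bars). Annotated starts reach 100%, against 93.5% over all genes. Truncations with AUG reach 2.33% (1 of 43), against 10.3%, a share that their interval holds.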

How the data were processed

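The 11 LTM libraries were processed by the authors into 1 table with a value per candidate ORF. CASAVA, bcl2fastq 2.17 and Bowtie2 are named in the submitters' processing notes, with no settings in the sources used here. Per the notes deposited with the table, regressions on LTM and CHX footprints gave start and stop statistics, each a score, and a random forest on 6 features gave the forest score. The deposited adjusted rating, also a score, exists for ORFs with forest scores above 0.5. The deposited ratio among ORFs sharing a stop codon was not needed. Columns of single libraries number 0, so depth per library is unknown. The column names end in nosat, which the notes do not explain.

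Entries were joined to genes by systematic name and called rated above 0.5. The deposited notes state this cut-off and 0.1, and state that no value serves all classes. Shares, exact 95% intervals (scipy 1.17.1), medians and ratios to the gene's annotated start were computed (pandas 2.3.3, Python 3.11.15) after the code was tested on simulated data. No test was run, since there is no replicate. Alternatives were other cut-offs (0.1, 0.8, 0.9), the adjusted rating, genes without near-identical isozymes, genes with a rated annotated ORF and, chosen after seeing the data, omission of entries at another gene and 1 upstream ORF per stop codon. Of the 1938 entries, 46 lay at another gene (41 under HIS3, 5 under HOM2).

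SK1 positions are counted from 1 in the deposited annotation. S288C (R64) sequence was read separately and only where codon and ORF length matched, and the SK1 genome sequence was not used here. The genes and lists were chosen with earlier results of these data known. Genes were named by rule: CPA1, members without an annotated ORF, rated truncations and the 5 best near-cognate ones, the 10 highest-scoring rated upstream ORFs (at most 2 per gene), all with AUG, the 5 highest and 5 lowest annotated starts, ratios above 1, and isozyme pairs. Others (GLN1, members named among start-overlapping and internal ORFs) were chosen after their values were seen.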

Additional observations from a re-analysis of the deposited data

How the results depend on the processing

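The cut-off sets most shares (all genes in parentheses). At 0.1, 98.1% of upstream ORFs (97.6%), 93.2% of start-overlapping ORFs (88.8%) and 8.54% of truncations (21.8%) of the enzymes were rated. At 0.8 it was 3.40% of upstream (4.92%) and 3.39% of start-overlapping ORFs (5.37%). A rated upstream ORF was then found in 8 of the 50 enzymes with a candidate. At 0.9 it was 69.1% of annotated ORFs (47.8%) and 1.23% of upstream ORFs (1.15%). Of start-overlapping ORFs it was 0% (1.43%), and of truncations 0% (0.129%). At this cut-off 3 of the 50 enzymes had a rated upstream ORF. The share of all genes with one was not computed at 0.8 or 0.9. The median LTM ratio of upstream to annotated starts was 3.11e-06 at 0.1, 0.0515 at 0.8 and 0.0508 at 0.9. These moves follow from the cut-offs, since fewer or more ORFs pass. With 1 upstream ORF per stop codon, 29.3% of 208 were rated, as fewer candidates were counted. The share over all genes was not computed under this rule. The 29.3% is therefore not comparable with the share of all upstream candidates given above. The other 30 of 45 alternative values stayed within the interval or 1.5 times the count, including those with the adjusted rating and without near-identical isozymes. No paired analysis was possible because each group has 1 library and the table has no value per library. Depth is unknown, and codons or classes with few candidates (4 with AGG, 22 extensions) leave wide intervals.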

Other observations

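Other genes of amino acid synthesis, outside the 59 and taken from a list written with earlier results known, had a similar share of rated upstream ORFs. It was 46 of 235 (19.6%, against 22.0% over all genes) in 18 of 33 genes with a candidate (against 58.2% of genes). Their 34 listed annotated ORFs were all rated, against 93.5% over all genes. Here 5 rated upstream ORFs had more LTM evidence than the annotated start, which over all genes 16.7% of rated upstream ORFs had. They were a UUG in MET12, a methylenetetrahydrofolate reductase (score 0.909, ratio 119), an AUG in STR3, a cystathionine beta-lyase (0.895, ratio 10.4), an AUA and an AUU 3 bases apart in MET2, homoserine acetyltransferase (ratios 6.89 and 6.78), and a UUG of 2 codons in GLT1, glutamate synthase (0.951, ratio 1.25). None of 28 extensions was rated, where 4.57% of extensions over all genes were, so the number is too small to show a difference.

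Among 18 regulators of amino acid control, 28 of 103 upstream ORFs were rated (27.2%, against 22.0%). The rated ones of GCN2 and PUT3 had no annotated value to be set against. Of the 28, 6 had more LTM evidence than the annotated start, which over all genes 16.7% of rated upstream ORFs had. All 6 were in GCN4 (an AUA and 2 AUGs, ratios 17.2, 15.1 and 3.41), whose leader ORFs are the textbook case of translational control, and in BAS1, a factor of histidine and purine synthesis (2 UUGs and an AUU, ratios 4.16, 7.63 and 1.03). MET31, a factor of sulfur metabolism, had the 1 rated extension of 19 (background 4.57%), a GUG that adds 2 codons, with a score of 0.604. ALT2, an alanine aminotransferase homologue, had an AUG 6 nt into its coding sequence with a score of 0.882 and LTM evidence of 9156, a ratio of 44.7 to the annotated start. No error can be given for these values, and the genes were named here after their values were seen.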
